A study of Mus musculus with 6 samples.

Results

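The 43 peroxisomal genes described here were chosen by symbol, from a list of peroxins, beta-oxidation and alpha-oxidation enzymes, ABCD transporters, ether lipid enzymes, catalase, membrane proteins and CoA hydrolases, and matched to the Ensembl mouse identifiers of the count table. All 43 symbols had 1 row each among 55450 gene identifiers, and 42 passed the filter on low counts. Peroxisomes are single-membrane organelles that shorten very long, branched and dicarboxylic fatty acids, destroy hydrogen peroxide and start the synthesis of ether lipids. Peroxins, the products of the Pex genes, build the membrane, import folded enzymes into the matrix and divide the organelle. Many genes of peroxisomal fatty acid oxidation are textbook targets of PPAR alpha, a nuclear receptor for fatty acids that corepressors hold in check when it lacks ligand, and in the small intestine the organelle handles part of the dietary fat that enterocytes take up.

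The data were polyA RNA-seq counts from scraped small intestinal epithelium of adult mice, with 1 library per mouse and 2 groups of 3. The 3 knockout mice (animals 423, 476 and 477) carried Vil1-Cre-ERT2, a Cre recombinase driven by the villin 1 promoter and activated by tamoxifen, with Ncor1loxP/loxP and floxed alleles of a second corepressor gene. The 3 control mice (animals 482, 483 and 486) carried the same floxed alleles without Cre. At 8 to 9 weeks of age the mice were injected with tamoxifen at 15 mg per 100 g body weight for 5 days. Knockout and Cre transgene went together, so their effects cannot be told apart, and whether a library held duodenum, jejunum or ileum is not stated in the labels. Values of the 3 mice of a group are given in the order of their animal numbers above. CPM are counts per 1000000 counts of a library, scaled between libraries by TMM, which lines up the bulk of the genes. A gene was called higher or lower in knockouts at an adjusted p under 0.05 in edgeR's quasi-likelihood test, fitted on all 15028 genes that passed the filter and adjusted over them by Benjamini-Hochberg. Fold changes are knockout over control on the log2 scale. Their SE is the absolute log2 fold change divided by the square root of the test's F statistic.

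Total counts ran from 23476031 to 34568205 in knockouts and from 26199718 to 46835165 in controls. Ncor1, one of the targeted genes, stood at 31.3, 36.4 and 22.5 CPM in knockouts, against 140.4, 137 and 99.3 CPM in controls (log2 fold change -2.06, SE 0.25, adjusted p = 0.00045). Of 9 general epithelial markers all were detected, Epcam and Cdh1 among them, and their sum ran from 9163 to 13124 CPM in knockouts and from 12041 to 13475 CPM in controls. The sum of 8 enterocyte markers ran from 99137 to 189811 CPM in knockouts and from 46755 to 68822 CPM in controls, with 4 called higher, Fabp2, Apoa4 and Rbp2 among them, and 1 lower. The sum of 8 leukocyte markers ran from 38.2 to 48.5 CPM in knockouts and from 46.3 to 149 CPM in controls, with 2 lower. All 5 erythrocyte genes were higher in knockouts, where their sum ran from 35.5 to 543 CPM, against 7.95 to 22.2 CPM in controls. Vil1 of the general epithelial list and 1 stem and crypt marker were lower, and no mesenchymal, endothelial or pancreatic and liver marker was called. Of these last lists, 8 of 8 mesenchymal, 2 of 3 endothelial and 1 of 5 pancreatic and liver markers passed the count filter. The others were not tested. None of the 53 marker genes was at 0 in every library. The part of these shifts in the peroxisomal results was not tested. In tissue libraries more RNA per cell and more cells of a type cannot be told apart.

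In knockout epithelium 18 of the 42 peroxisomal genes tested were higher than in control epithelium, 3 were lower and 21 did not pass the test. Among all genes tested 35.6% were called, 17.3% higher and 18.3% lower, so the peroxisomal share called higher (42.9%) lay above the background and the share called lower (7.14%) below it. The list was chosen with earlier results of these data known, so these shares describe it and are no independent test. The median log2 fold change was 0.59 over the peroxisomal genes and -0.06 over all genes. Every knockout library lay above every control library in 22 of the 42 genes (52.4%, against 23.9% of all genes), and every knockout library lay below in 4 (9.52%, against 26.4% of all genes). The thiolase gene Acaa1b, the membrane protein gene Pxmp4, the isomerase gene Eci2 and the bifunctional enzyme gene Ehhadh had the 4 largest rises, and the transporter gene Abcd4 and the paralogues Eci3 and Pxmp2 were the 3 lower genes. In all, 11 of the 18 rises and all 3 falls were over 2-fold. Among all genes tested, 1935 of 2596 rises and 1990 of 2752 falls were over 2-fold, so large changes were common in these data.

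These counts depend on how the libraries were scaled. With library-size scaling alone, where the median over all genes was -0.49 and that over the peroxisomal genes 0.15, 10 of the 42 peroxisomal genes were called higher and 7 lower. Of all 15028 genes, 1133 were higher and 4554 lower with this scaling, against 2596 and 2752 with TMM. The calls of Pex7, Pex14, Pex3, Pex11g, Hsd17b4, Agps, Cat and Mpv17l were then lost, and Pex6, Acox3, Acaa1a and Amacr were called lower. Without control 482 or without knockout 477, 11 peroxisomal genes were called higher. Calls over all genes fell too, to 1510 higher of 15136 without control 482 and 1648 of 15923 without knockout 477. The Spearman rho of log2 fold change with exon length was -0.01 over the 42 peroxisomal genes and -0.37 over 15018 genes, which are not independent replicates. Removal of each library's trend with exon length and GC content left 18 peroxisomal genes higher and 3 lower, beside 2351 higher and 2252 lower of 15012 genes.

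**Figure D1:**
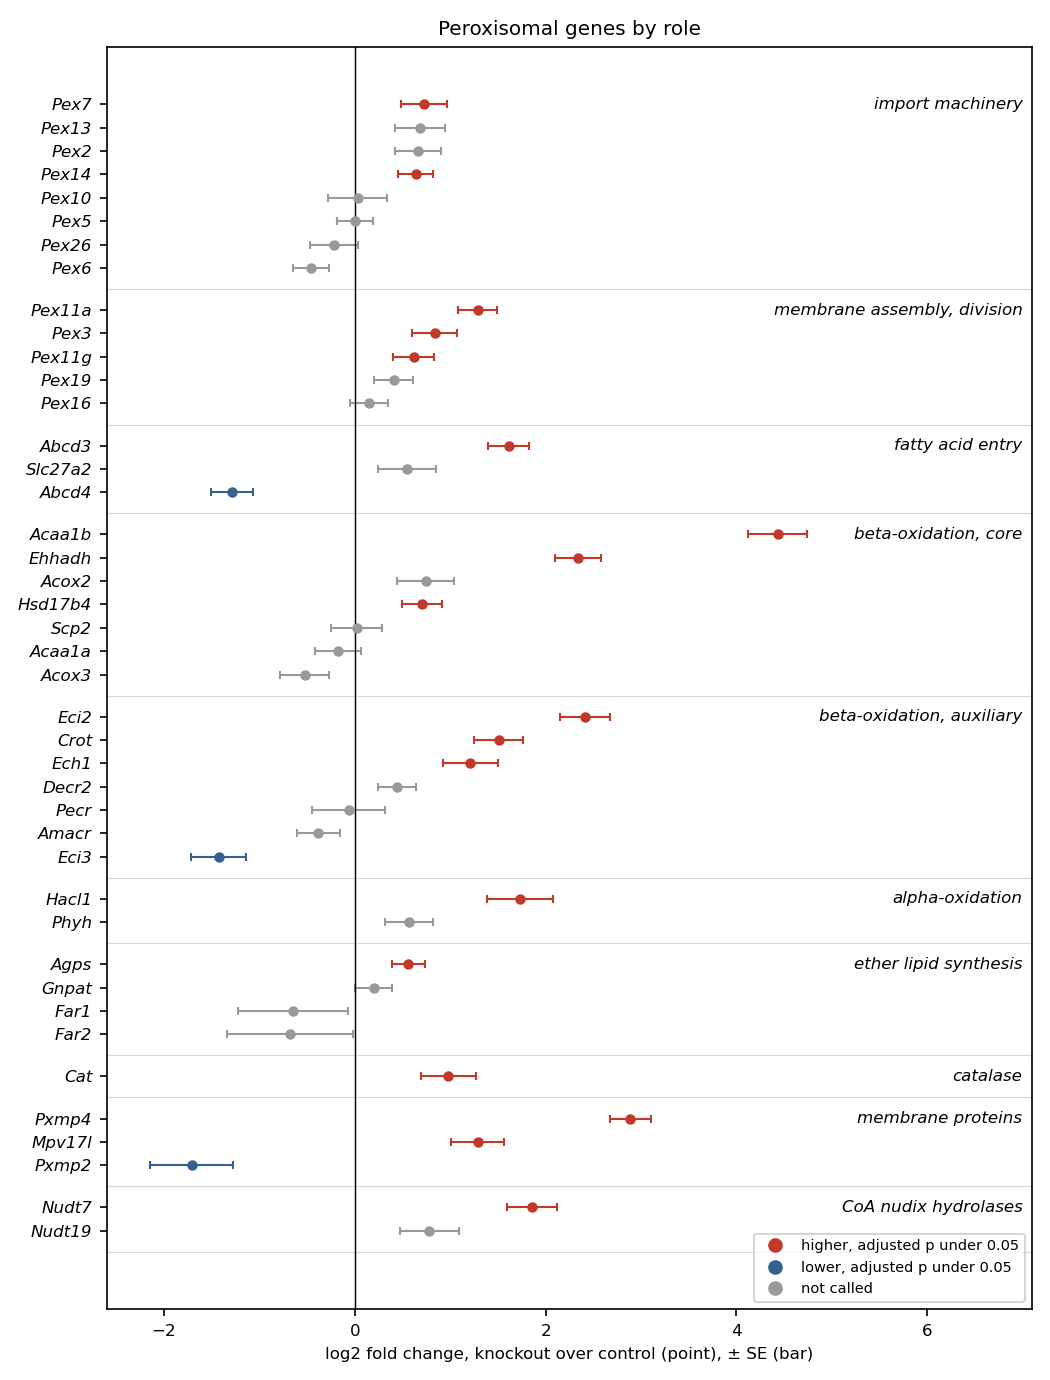
Log2 fold change of the 42 tested peroxisomal genes, knockout over control (x axis, log2 units; bars are the SE), grouped by role. The 18 genes called higher are red, the 3 called lower (Abcd4, Eci3, Pxmp2) blue and the 21 not called grey, with Acaa1b farthest to the right at 4.44.

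Among the 43 genes, the largest change was in the final step of peroxisomal beta-oxidation, where 3-ketoacyl-CoA thiolase releases acetyl-CoA. Mice have a pair of genes for it, Acaa1a (ENSMUSG00000036138, mm10 chr9:119339676-119350299) and Acaa1b (ENSMUSG00000010651, chr9:119148023-119157093), which lie 182582 bases apart on opposite strands. Acaa1b had 400.1, 600.2 and 672 CPM in knockouts, against 19.4, 29.4 and 28.4 CPM in controls. The libraries of the genotypes were far apart, and Acaa1b rose 21.6-fold (log2 fold change 4.44, SE 0.31, adjusted p = 3.3e-05). Acaa1a had 224, 318 and 305 CPM in knockouts, against 252, 362 and 345 CPM in controls, and its groups overlapped (log2 fold change -0.18, SE 0.24, adjusted p = 0.59). Per kb of exon, Acaa1b held 80.1%, 80.9% and 83.2% of the summed level of the pair in knockouts and 14.8%, 15.5% and 15.6% in controls. The log2 ratio of Acaa1b to Acaa1a was 2.13 ± 0.16 in knockouts and -2.46 ± 0.05 in controls (SD, n = 3 each), a difference of 4.59 (exact two-sided permutation test, p = 0.1, the smallest that 3 against 3 allows, and 0.133 after adjustment over 8 pairs). The genes are near-identical in places: 30.5% of the 50-base words of Acaa1b transcripts also occur in Acaa1a transcripts, and how reads that fit both were counted is not given in the sources used here. The split between the 2 genes is therefore uncertain. Their summed level per kb was 255, 378 and 412 CPM per kb in knockouts and 67.0, 97.0 and 92.7 CPM per kb in controls, and those groups did not overlap.

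The promoters of this pair are shown because its log2 ratio differed most between genotypes among the 8 pairs, and those of Pxmp4 and Cat because they, with Pex11g, were the 3 risen genes with a match to a paired nuclear receptor site. The sequences are from RefSeq (GRCm38.p6, the assembly of mm10) and run 5′ to 3′ on the gene's strand, 250 bases before to 50 after the annotated start. The motifs searched on both strands were the single site AGGTCA, matched exactly, and the spaced pair AGGTCANAGGTCA, with up to 3 mismatches in its 12 fixed letters; the pair contains the single site, so 1 stretch can match both. Capitals mark matches to either motif.
Acaa1b (chr9:119157044-119157343, minus strand): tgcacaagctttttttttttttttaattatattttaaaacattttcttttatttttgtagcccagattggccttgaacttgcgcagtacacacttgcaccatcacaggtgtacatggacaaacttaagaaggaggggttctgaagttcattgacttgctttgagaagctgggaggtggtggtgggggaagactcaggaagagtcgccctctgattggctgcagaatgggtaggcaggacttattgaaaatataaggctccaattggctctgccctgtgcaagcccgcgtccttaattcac
Acaa1a (chr9:119341044-119341343, plus strand): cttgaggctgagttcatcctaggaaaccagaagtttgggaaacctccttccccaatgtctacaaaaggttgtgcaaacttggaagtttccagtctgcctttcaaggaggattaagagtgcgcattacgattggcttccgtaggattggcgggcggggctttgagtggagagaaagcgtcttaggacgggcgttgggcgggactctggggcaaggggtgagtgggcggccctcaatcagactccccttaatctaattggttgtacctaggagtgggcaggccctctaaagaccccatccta
Pxmp4 (chr2:154603624-154603923, minus strand): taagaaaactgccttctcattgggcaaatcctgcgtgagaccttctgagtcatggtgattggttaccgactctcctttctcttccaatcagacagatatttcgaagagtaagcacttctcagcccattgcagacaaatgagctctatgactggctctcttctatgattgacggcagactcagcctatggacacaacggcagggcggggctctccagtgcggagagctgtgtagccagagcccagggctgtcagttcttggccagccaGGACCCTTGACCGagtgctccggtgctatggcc
Cat (chr2:103485104-103485403, minus strand): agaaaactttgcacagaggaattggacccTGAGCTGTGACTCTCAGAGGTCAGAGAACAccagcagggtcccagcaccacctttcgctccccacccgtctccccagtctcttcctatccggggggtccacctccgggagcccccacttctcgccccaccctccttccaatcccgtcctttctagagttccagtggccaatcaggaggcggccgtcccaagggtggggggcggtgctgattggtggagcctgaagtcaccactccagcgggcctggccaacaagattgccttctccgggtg
Neither thiolase promoter held either motif in this window, and the RefSeq start of Acaa1a lies inside the gene as annotated by GENCODE. Cat held 3 windows within the limit. Its closest was AGGTCAGAGAACA, with 2 mismatches, 204 bases before the start, and in Pxmp4 it was CGGTCAAGGGTCC, with 3 mismatches, on the opposite strand within the first transcribed bases. A promoter was listed for 35 of the 43 genes. The single site was in 5 of the 41 member promoters (12.2%), against 16.3% of all 32851 promoters, and the spaced pair in 8 (19.5%), against 24.65%. By call, 3 of 16 genes that rose and 4 of 18 that were not called had a spaced pair. A match is only a match of letters, and these windows do not cover enhancers.

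The enzymes before the thiolase differed among themselves. Of the 7 core genes of beta-oxidation 3 rose (42.9%, against 17.3% of all genes), none fell (against 18.3%) and 4 did not pass the test. Ehhadh (ENSMUSG00000022853, chr16:21761287-21787807), the L-bifunctional enzyme that hydrates and dehydrogenates straight-chain and dicarboxylic substrates, had 614, 772 and 767 CPM in knockouts, against 116, 157 and 152 CPM in controls (log2 fold change 2.34, SE 0.24, adjusted p = 0.0002). No knockout library came near a control library. Hsd17b4, the D-bifunctional enzyme that also serves branched chains and bile acid precursors, had 367, 478 and 390.2 CPM in knockouts, against 242, 265 and 252 CPM in controls (log2 fold change 0.70, SE 0.21, adjusted p = 0.029). The Hsd17b4 groups did not overlap, but the call was lost without control 482, control 483, knockout 476 or knockout 477 (adjusted p of 0.088, 0.088, 0.10 and 0.070). Scp2, whose long product is the thiolase for branched chains and whose short product is a sterol carrier, had 461, 513 and 658 CPM in knockouts, against 386, 565 and 660.0 CPM in controls (log2 fold change 0.02, SE 0.27, adjusted p = 0.96). Scp2 groups overlapped over most of their range, and 29.7% of its 50-base words occur in a pseudogene. The oxidases of branched-chain substrates did not pass either: Acox2, which acts on bile acid intermediates, had a log2 fold change of 0.74 (adjusted p = 0.077) and Acox3, the pristanoyl-CoA oxidase, one of -0.53 (adjusted p = 0.14). Acox2 passed without knockout 423 (adjusted p = 0.022).

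Among the auxiliary enzymes of beta-oxidation, which deal with double bonds, stereochemistry and the exit of shortened chains, 3 of 7 rose and 1 fell. These shares were 42.9% and 14.3%, against 17.3% and 18.3% of all genes. Eci2 (ENSMUSG00000021417, chr13:34977748-35027096), an isomerase that moves double bonds of unsaturated acyl-CoA into the position that beta-oxidation needs, had 209, 231 and 278 CPM in knockouts, against 39.3, 35.0 and 60.3 CPM in controls (log2 fold change 2.42, SE 0.26, adjusted p = 0.00028). Its neighbour Eci3 (ENSMUSG00000021416, chr13:34946614-34963810), an isomerase paralogue 13937 bases away on the same strand, had 22.7, 18.2 and 33.9 CPM in knockouts, against 46.4, 75.3 and 78.8 CPM in controls (log2 fold change -1.42, SE 0.29, adjusted p = 0.0057). The neighbours moved in opposite directions, with no overlap between genotypes in either. Per kb of exon, Eci3 held 29.7%, 23.5% and 32.3% of the pair in knockouts and 82.2%, 89.4% and 83.6% in controls. The log2 ratio of Eci3 to Eci2 was -1.33 ± 0.32 in knockouts and 2.53 ± 0.46 in controls (SD, n = 3 each; exact permutation p = 0.1, adjusted 0.133). Eci2 transcripts hold 8.70% of the 50-base words of Eci3, so some reads of the pair cannot be placed. The summed level of the pair overlapped between genotypes, at 53.8, 54.6 and 74.1 CPM per kb in knockouts and 39.8, 59.4 and 66.4 CPM per kb in controls.

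Crot, the carnitine octanoyltransferase that hands medium-chain products on for export, had 549.7, 589 and 638 CPM in knockouts, against 145, 236 and 242 CPM in controls (log2 fold change 1.51, SE 0.26, adjusted p = 0.0026). Ech1, a dienoyl-CoA isomerase found in peroxisomes and mitochondria, had 479.9, 403 and 552 CPM in knockouts, against 144, 191 and 286 CPM in controls (log2 fold change 1.21, SE 0.29, adjusted p = 0.011). Both rose, and in both the lowest knockout library lay above the highest control library. Decr2, the peroxisomal dienoyl-CoA reductase, had 92.7, 77.8 and 90.1 CPM in knockouts, against 54.1, 63.2 and 74.9 CPM in controls (log2 fold change 0.44, SE 0.20, adjusted p = 0.11). Decr2 was not called although its groups did not overlap. Pecr, an enoyl-CoA reductase, and Amacr, the racemase of branched chains, had log2 fold changes of -0.06 and -0.38 (adjusted p of 0.91 and 0.21), with overlapping groups.

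**Figure D2:**
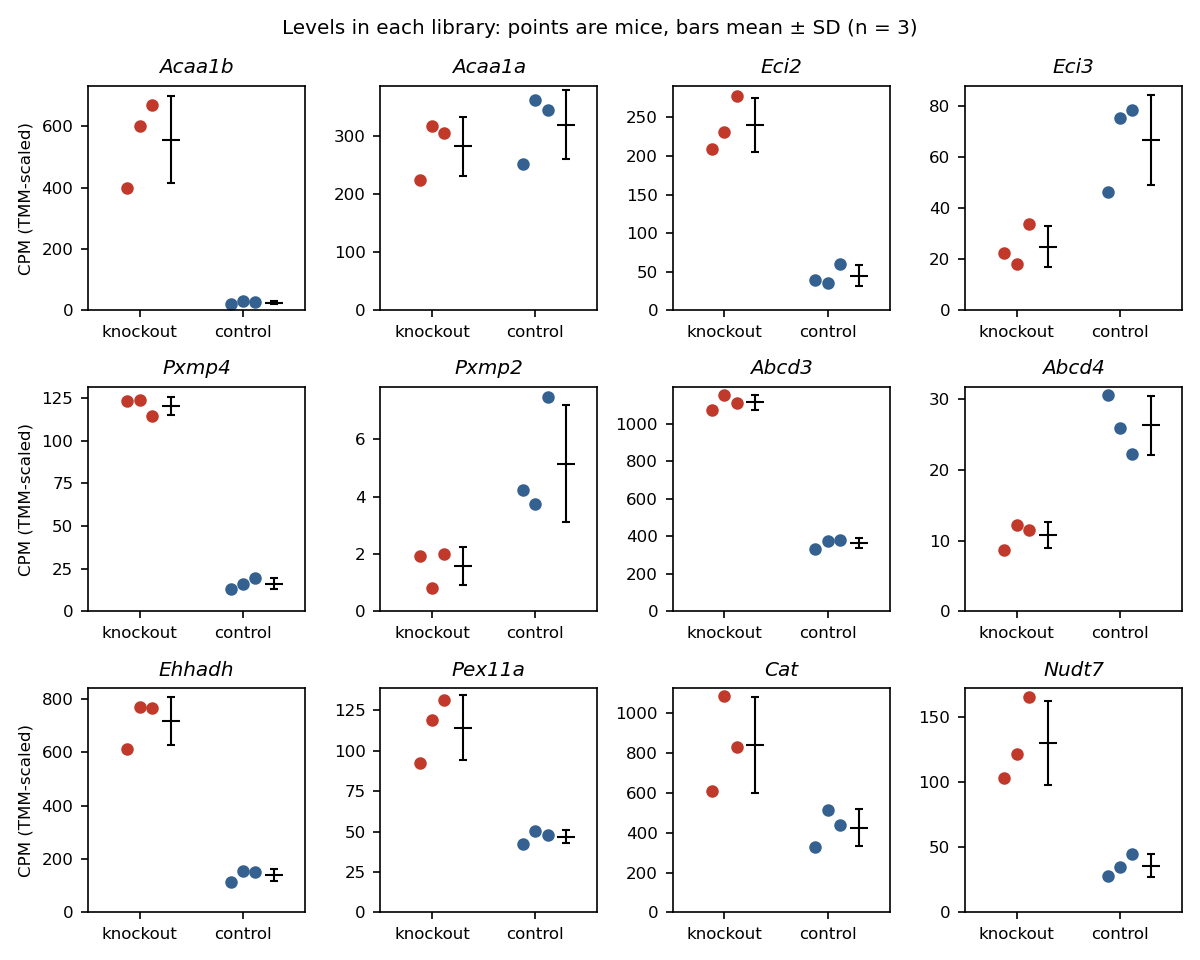
CPM of 12 peroxisomal genes in each library (y axis, linear, from 0), knockouts left and controls right; points are mice and bars are the mean ± SD of 3. Acaa1b, Eci2, Pxmp4, Abcd3, Ehhadh, Pex11a, Cat and Nudt7 lie higher in all knockout mice, Eci3, Pxmp2 and Abcd4 lower, and Acaa1a overlaps.

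Fatty acids reach the matrix as CoA esters through transporters of the ABCD family. Abcd3 (ENSMUSG00000028127, chr3:121758774-121815302), which encodes PMP70, the carrier of dicarboxylic and branched acyl-CoA, had 1076, 1156 and 1111 CPM in knockouts, against 335, 377 and 382 CPM in controls (log2 fold change 1.61, SE 0.22, adjusted p = 0.00081). The knockout libraries differed by little among themselves and Abcd3 rose 3.06-fold. Abcd4 (ENSMUSG00000021240, chr12:84601464-84617413), a family member that is known to act in lysosomal cobalamin export, had 8.72, 12.2 and 11.4 CPM in knockouts, against 30.6, 26.0 and 22.3 CPM in controls (log2 fold change -1.29, SE 0.22, adjusted p = 0.0027). Abcd4 fell in every knockout library, in the direction opposite to Abcd3. Abcd2, the carrier of very long unsaturated chains, had 0 counts over the knockouts and 10 over the controls and was not tested. Slc27a2, which activates very long chains, had 175, 187 and 246 CPM in knockouts, against 107, 209.7 and 101 CPM in controls (log2 fold change 0.54, SE 0.31, adjusted p = 0.19). Control 483 lay above 2 of the knockout libraries, and without it Slc27a2 was called higher (log2 fold change 0.96, adjusted p = 0.033).

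Alpha-oxidation removes 1 carbon from branched chains such as phytanic acid. Hacl1, the lyase of that pathway, was scarce: it had 3.40, 4.32 and 5.29 CPM in knockouts, against 0.970, 1.42 and 1.52 CPM in controls (log2 fold change 1.73, SE 0.34, adjusted p = 0.0053), from 316 counts over the knockouts and 166 over the controls. All knockout libraries exceeded all controls, and 1540 of its 4945 exon bases are also annotated to a same-strand gene that had 0 counts. Hacl1 also shares 108 exon bases with the opposite-strand gene Btd, which had 6290 counts in all. The strand setting is not given, so the part of Btd reads in the Hacl1 counts is not known. Phyh, the hydroxylase of the step before, was abundant at 508, 706 and 808 CPM in knockouts, against 379, 529.7 and 456 CPM in controls, and 1 knockout library lay within the control range (log2 fold change 0.57, SE 0.26, adjusted p = 0.11). Catalase (Cat, chr2:103453849-103485160), which breaks down the hydrogen peroxide that the oxidases make, had 608, 1089 and 828 CPM in knockouts, against 329, 514 and 437 CPM in controls (log2 fold change 0.98, SE 0.29, adjusted p = 0.025). The Cat groups did not overlap, but its call was lost without control 482, knockout 476 or knockout 477 (adjusted p of 0.083, 0.098 and 0.064).

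Membrane proteins outside the peroxin set split as well. Pxmp4 (ENSMUSG00000000876, chr2:154585758-154603708), a small integral membrane protein, had 123, 124 and 115 CPM in knockouts, against 13.3, 16.1 and 19.5 CPM in controls (log2 fold change 2.89, SE 0.22, adjusted p = 4.3e-05). It rose 7.41-fold, and relative to the mean it spread less between knockouts than between controls (coefficient of variation 4.34% and 19.1%). The SD itself was larger in knockouts, at 5.24 CPM against 3.10 CPM. Pxmp2 (chr5:110274282-110286186), which forms a channel for small solutes, had 1.92, 0.831 and 2.01 CPM in knockouts, against 4.22, 3.75 and 7.48 CPM in controls (log2 fold change -1.71, SE 0.43, adjusted p = 0.014). It fell in every knockout library and was scarce, with 113 counts over the knockouts and 694 over the controls. Mpv17l, of the same protein family as Pxmp2, had 5.97, 5.45 and 6.33 CPM in knockouts, against 2.04, 2.33 and 2.87 CPM in controls (log2 fold change 1.29, SE 0.28, adjusted p = 0.0077). Mpv17l rose, at a similarly low level. The log2 ratio of Mpv17l to Pxmp2 per kb was 0.32 ± 0.56 in knockouts and -2.51 ± 0.36 in controls (SD, n = 3 each; exact permutation p = 0.1, adjusted 0.133). The difference of 2.83 became 1.82 when 1 CPM per kb was added in place of 0.1.

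The nudix hydrolases Nudt7 and Nudt19 split CoA and its esters. Nudt7 (chr8:114133557-114154739) had 103, 122 and 166 CPM in knockouts, against 27.7, 34.9 and 45.0 CPM in controls (log2 fold change 1.86, SE 0.26, adjusted p = 0.001). It lay higher in all knockouts, and the call held without any 1 library. Nudt19 had 91.1, 52.3 and 70.7 CPM in knockouts, against 32.8, 30.7 and 61.0 CPM in controls (log2 fold change 0.78, SE 0.31, adjusted p = 0.073). Nudt19 groups overlapped, with control 486 above 1 knockout library, and it was called without control 486 (adjusted p = 0.0083) or without knockout 476 (adjusted p = 0.047). An antisense gene overlaps 938 of its 2680 exon bases, and the strand setting is not given in the sources used here.

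Of the 13 peroxins 5 rose (38.5%, against 17.3% of all genes), none fell (against 18.3%) and 8 did not pass the test. Their largest log2 fold change was 1.29. The largest was Pex11a (ENSMUSG00000030545, chr7:79735957-79743131), of the PEX11 family that elongates and divides the organelle. Pex11a had 92.3, 119 and 131 CPM in knockouts, against 42.3, 50.2 and 47.8 CPM in controls (log2 fold change 1.29, SE 0.21, adjusted p = 0.002), with no overlap. Its paralogue Pex11g had 23.3, 21.5 and 28.9 CPM in knockouts, against 13.0, 16.7 and 18.2 CPM in controls (log2 fold change 0.62, SE 0.22, adjusted p = 0.049). Pex11g just passed, and it lost its call without control 482, control 483, knockout 423, knockout 476 or knockout 477 (adjusted p of 0.17, 0.11, 0.075, 0.057 and 0.17) and with DESeq2. Exons of Pex11g share 1396 bases with an opposite-strand gene that had 16 counts in all. The share of Pex11a in the pair per kb was 80.9%, 85.5% and 82.9% in knockouts and 77.6%, 76.2% and 73.7% in controls (exact permutation p = 0.1 for the log2 ratio, adjusted 0.133).

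Of the factors that insert membrane proteins, Pex3 had 34.9, 29.6 and 33.7 CPM in knockouts, against 13.9, 16.8 and 24.1 CPM in controls (log2 fold change 0.84, SE 0.23, adjusted p = 0.022). It was higher in every knockout, but not called without control 482, control 483, knockout 423 or knockout 477 (adjusted p of 0.080, 0.075, 0.056 and 0.061). Pex19, the soluble chaperone of that step, had 137, 150.4 and 141 CPM in knockouts, against 90.7, 104 and 129 CPM in controls (log2 fold change 0.41, SE 0.21, adjusted p = 0.15). Pex19 groups did not overlap and the test was not passed. Pex16 had a log2 fold change of 0.15 (adjusted p = 0.58).

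The import machinery consists of soluble receptors, a docking complex, a ubiquitin ligase and an ATPase that recycles the receptors. Of its 8 genes 2 rose (25%), near the 17.3% of all genes, and none fell. Pex7, the receptor for the N-terminal targeting signal, had 48.6, 50.4 and 61.1 CPM in knockouts, against 24.7, 28.5 and 43.3 CPM in controls (log2 fold change 0.73, SE 0.24, adjusted p = 0.04), and Pex14, of the docking complex, had 36.0, 39.2 and 45.2 CPM in knockouts, against 24.1, 26.0 and 27.1 CPM in controls (log2 fold change 0.64, SE 0.18, adjusted p = 0.024). Both lay higher in all knockouts. The Pex7 call was lost without control 482, control 483, knockout 423, knockout 476 or knockout 477 (adjusted p of 0.14, 0.13, 0.059, 0.064 and 0.13), and that of Pex14 without control 482, control 483 or knockout 477 (adjusted p of 0.090, 0.082 and 0.095). Pex2, of the ubiquitin ligase, had 79.9, 65.5 and 98.0 CPM in knockouts, against 39.1, 49.7 and 64.4 CPM in controls (log2 fold change 0.67, SE 0.24, adjusted p = 0.057), with no overlap. Pex2 passed without control 486 or knockout 476 (adjusted p of 0.019 and 0.047), and Pex13, of the docking complex, passed without control 486 (log2 fold change 0.69 with all libraries and 0.91 without it, adjusted p = 0.067 and 0.022). Pex5, the receptor for the C-terminal signal, had a log2 fold change of 0.00 (adjusted p = 0.99), and Pex10 one of 0.03 (adjusted p = 0.95). Pex6, the recycling ATPase, had a log2 fold change of -0.46 with all knockouts below all controls (adjusted p = 0.083, and 0.042 without control 486), and its anchor Pex26 one of -0.22 (adjusted p = 0.52).

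Ether lipid synthesis begins in the peroxisome with the acyltransferase Gnpat and the synthase Agps, which takes fatty alcohols made by Far1 and Far2. Agps had 37.7, 37.5 and 36.2 CPM in knockouts, against 25.9, 23.0 and 26.5 CPM in controls (log2 fold change 0.56, SE 0.17, adjusted p = 0.032). Its groups did not overlap, and its call was lost without control 482, control 483, knockout 423, knockout 476 or knockout 477 (adjusted p of 0.088, 0.14, 0.062, 0.066 and 0.077). Gnpat had 22.5, 17.0 and 19.4 CPM in knockouts, against 17.5, 16.5 and 17.4 CPM in controls (log2 fold change 0.20, SE 0.19, adjusted p = 0.45). Far2 had 30.0, 6.61 and 3.68 CPM in knockouts, against 23.0, 16.5 and 25.3 CPM in controls, so knockout 423 lay above every control and the other two below. Without knockout 423 the log2 fold change of Far2 was -2.02 (adjusted p = 0.0049), against -0.68 (adjusted p = 0.45) with all libraries. Exons of Far2 share 837 bases with the opposite-strand gene Ergic2. Far1 was scarce, at a log2 fold change of -0.65 (adjusted p = 0.40).

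**Figure D3:**
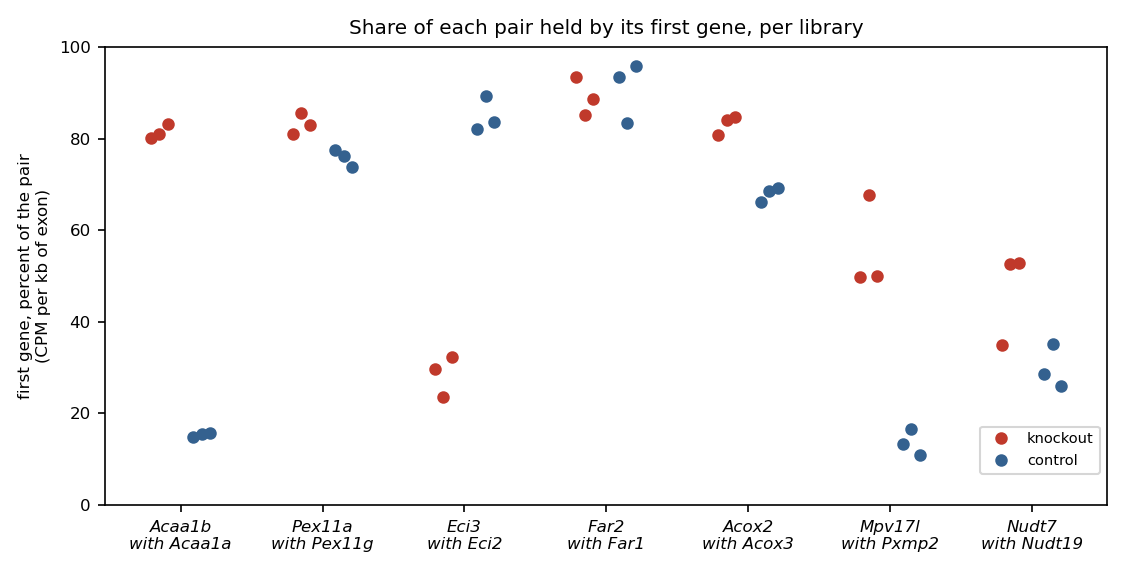
Share of a paralogue pair's summed level per kb of exon (y axis, percent) that its first-named gene held, for 7 pairs; knockouts (red) stand left of controls (blue), and each point is 1 mouse. The Acaa1b share lies above 80% in knockouts and below 16% in controls, and the Eci3 share runs the other way.

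The remaining pairs were compared in the same way. Acox2 held 80.9%, 84.2% and 84.6% of its pair with Acox3 in knockouts and 66.1%, 68.5% and 69.3% in controls, without overlap (difference of log2 ratios 1.21, exact permutation p = 0.1, adjusted 0.133). The shares of Nudt7 with Nudt19 and of Far2 with Far1 overlapped between genotypes (exact permutation p of 0.2 and 0.3, adjusted 0.229 and 0.3). The ratio of Abcd2 to Abcd3 was among the 8 pairs of the adjustment (exact permutation p = 0.1, adjusted 0.133). It is not read further, since Abcd2 was at 0 in every knockout and the ratio there depends on the pseudocount and on Abcd3.

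Summed per kb of exon, the 43 genes amounted to 2130, 2633 and 2779 CPM per kb in knockouts and 1029, 1399 and 1410 CPM per kb in controls. The mean was 2514 ± 341 in knockouts and 1279 ± 217 in controls (SD, n = 3 each), a ratio of 1.97, and with library-size scaling alone the ratio was 1.45. The core enzymes of beta-oxidation summed to 883 ± 150 CPM per kb in knockouts and 374 ± 64.7 in controls (ratio 2.36). Sums of the import machinery (ratio 1.34) and of ether lipid synthesis (ratio 1.07) differed less. The groups overlapped in the sums of alpha-oxidation and of ether lipid synthesis and in no other role.

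**Figure D4:**
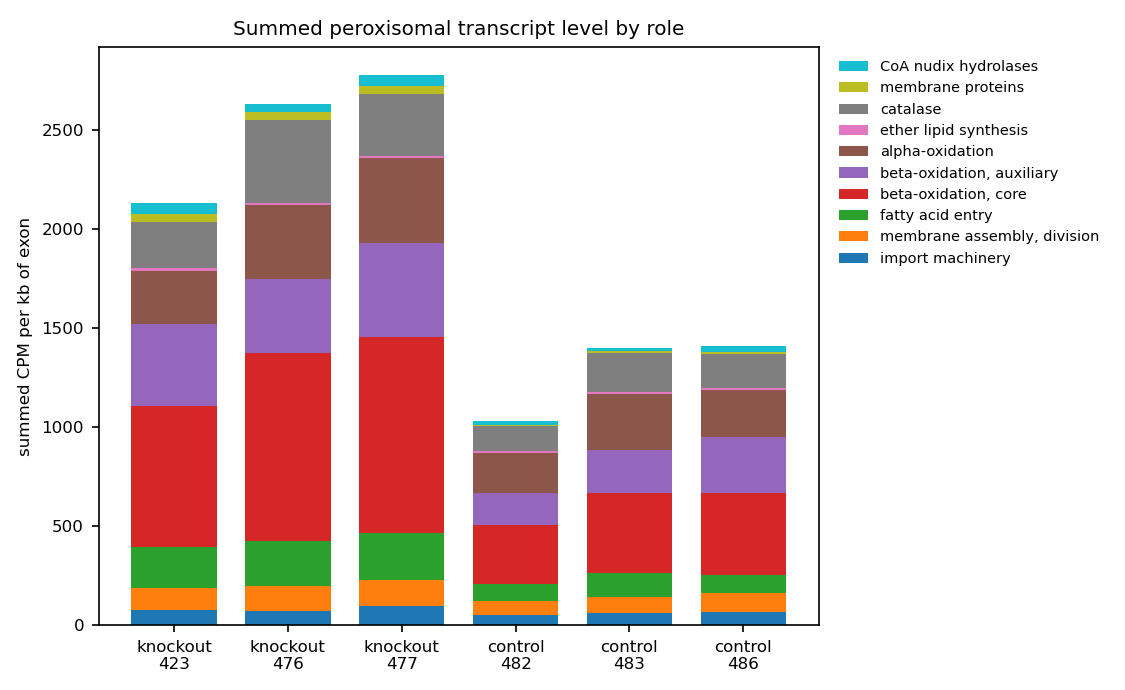
Summed level of the 43 peroxisomal genes in each library (y axis, CPM per kb of exon), stacked by role, knockouts left of controls. Knockouts reach 2130 to 2779 and controls 1029 to 1410, and the core enzymes of beta-oxidation are the largest block in every library.

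Of 47 other peroxisomal genes 41 were tested, and 13 rose and 5 fell (31.7% and 12.2%, against 17.3% and 18.3% of all genes). Of 11 tested genes of biogenesis and division 1 rose (9.09%, below the 17.3% of all genes) and none fell. It was Tmem135, a membrane protein that helps regulate peroxisomes and mitochondria, with 268, 277 and 268 CPM in knockouts, against 79.3, 121 and 112 CPM in controls (log2 fold change 1.38, SE 0.22, adjusted p = 0.002). Of 16 tested genes of acyl-CoA handling 6 rose and 3 fell (37.5% and 18.8%), and the share that fell was near the 18.3% of all genes. The acyl-CoA thioesterase gene Acot3 had 3.58, 4.89 and 4.77 CPM in knockouts, against 0.0843, 0.0338 and 0.0781 CPM in controls (log2 fold change 5.93, SE 0.46, adjusted p = 5.0e-05), from 329 counts over the knockouts and 9 over the controls, so its fitted fold change depends on few control counts. Hsdl2, a dehydrogenase-like protein, had 111, 99.8 and 89.2 CPM in knockouts, against 27.4, 28.9 and 31.4 CPM in controls (log2 fold change 1.77, SE 0.19, adjusted p = 0.00025), and Dhrs4, a carbonyl and retinal reductase, had 226, 214 and 262 CPM in knockouts, against 70.0, 88.2 and 102 CPM in controls (log2 fold change 1.43, SE 0.22, adjusted p = 0.0016). All 3 were without overlap between genotypes. Baat, which joins bile acids to glycine or taurine, had 0.470, 0.864 and 1.15 CPM in knockouts, against 3.48, 3.75 and 5.74 CPM in controls (log2 fold change -2.40, SE 0.42, adjusted p = 0.0029) and fell.

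Of 14 tested matrix enzymes outside the list 6 rose and 2 fell (42.9% and 14.3%, against 17.3% and 18.3% of all genes). Pipox, which oxidises pipecolic acid and sarcosine, had the largest fall, with 2.42, 0.931 and 1.78 CPM in knockouts, against 44.8, 41.7 and 51.5 CPM in controls (log2 fold change -4.75, SE 0.34, adjusted p = 3.5e-05). Pmvk, a kinase of the mevalonate pathway, had 26.5, 30.8 and 47.1 CPM in knockouts, against 10.5, 11.4 and 13.9 CPM in controls (log2 fold change 1.54, SE 0.26, adjusted p = 0.0023). Paox, an oxidase of acetylated polyamines, had 15.5, 26.0 and 29.3 CPM in knockouts, against 5.92, 5.17 and 4.92 CPM in controls (log2 fold change 2.14, SE 0.27, adjusted p = 0.00059), and in each of these 3 genes the genotypes did not overlap. The calls of these 8 genes held without any 1 library. Exons of Paox share 142 bases with the opposite-strand gene Echs1, which had 45547 counts in all. Further calls were Acot4, Acot8, Idh1, Gstk1, Ide and Agxt higher, at log2 fold changes of 0.70 to 1.89, and Isoc1 and Lonp2 lower, at -1.29 and -0.62. The Idh1 call was lost without control 482, knockout 476 or knockout 477 (adjusted p of 0.075, 0.076 and 0.069), and that of Ide without control 482 or knockout 477 (adjusted p of 0.061 and 0.066). Agxt was lost without control 483, knockout 423 or knockout 477 (adjusted p of 0.081, 0.099 and 0.055), and Lonp2 without control 483 or any knockout (adjusted p of 0.114, 0.088, 0.057 and 0.113).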

How the data were processed

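Gene-level counts of 6 polyA RNA-seq libraries were analysed. The authors deposited 1 count per gene and library. They also deposited variance-stabilised values on a log2 scale, made from counts per the name of the table, which served only for the limma alternative. The submitters' processing notes list FastQC 0.11.7, bcl2fastq, fastp 0.21.0, DESeq2 1.23.10, STAR 2.7.9a and featureCounts in Subread 1.6.2, and the build mm10. The sources used here give no annotation release, strand setting or treatment of multiply mapping reads. Symbols, exon lengths and coordinates came from GENCODE M21 (mm10), which matched 55190 of 55450 identifiers.

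The deposited counts were filtered by expression, scaled by TMM and tested with edgeR 4.0.16 in R 4.3.3 (robust quasi-likelihood F test, knockout against control, 3 libraries each, no covariates). Paralogue pairs were compared as log2 ratios of CPM per kb of exon plus a pseudocount of 0.1, with exact permutation tests in scipy 1.17.1. The fit was tested on simulated counts. Alternatives were library-size scaling, RLE factors, other count filters, DESeq2 1.42.0, limma 3.58.1, removal of length and GC trends, other pseudocounts and the omission of each library. Replicate libraries of a genotype were far from identical beyond counting error (chi-square over its degrees of freedom, 65.9 to 202), and a count of 0 allows up to 3 counts, or 0.0586 to 0.173 CPM; these floors cover counting error only. The edgeR p-values set the difference between genotypes against the spread between mice, which the fit estimates with help from all genes tested. The permutation p-values rest on the ways the libraries can be divided between the groups.

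The peroxisomal genes, the other lists and the markers were chosen with earlier results of these data known. In each role, up to 3 called genes with the largest absolute log2 fold change and the most abundant uncalled gene are given by library, with the 8 called genes of smallest adjusted p from the other peroxisomal list; paralogues and genes named for a changed call were added, and Ech1 was added after its values were seen. A targeted gene and some listed genes are not reported here.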

Additional observations from a re-analysis of the deposited data

How the results depend on the processing

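Of the 21 peroxisomal calls, 13 held under all 13 alternatives: Pex11a, Abcd3, Ehhadh, Acaa1b, Eci2, Ech1, Crot, Hacl1, Pxmp4 and Nudt7 higher, and Abcd4, Eci3 and Pxmp2 lower. Mpv17l also held without each library, and no value reversed in sign while called. With library-size scaling alone, 10 peroxisomal genes were higher and 7 lower (median log2 fold change 0.15), 8 other peroxisomal genes were lower, and 1133 genes were higher and 4554 lower among all genes. When each library was left out in turn, 11 to 21 peroxisomal genes were higher (11 without control 482 or knockout 477) and 3 to 4 lower, and the median ran from 0.48 to 0.67. Over all genes these settings gave 1510 to 2958 higher and 1748 to 2982 lower; 1510 and 1555 were higher without control 482 and control 483 and 1648 without knockout 477, and 1789 and 1748 were lower without control 482 and knockout 477. DESeq2 gave 17 peroxisomal genes higher and 3 lower, beside 2881 higher and 3024 lower over all genes. Without the low-count filter 17 were higher and 4 lower, beside 2811 higher and 3469 lower of 27205 genes. The calls of Pex14, Pex11g, Hsd17b4 and Agps were then lost, and 4 genes not called in the main fit were called. The causes of these shifts were not tested. No paired analysis was possible because the groups share no animal numbers. With 3 mice a group, the exact tests of pairs could not reach 0.05, and genes with few counts, such as Abcd2 and Far1, limit what could be detected.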

Other observations

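Per kb of exon, Phyh and Cat were the most abundant of the 43 peroxisomal genes in both genotypes. Phyh made up a mean of 14.0% of the summed level in knockouts and 18.8% in controls, and Cat made up 12.7% in both. Acaa1b ranked 3 in knockouts, with 11.2% of the sum, and 18 in controls, with 1.02%. Ehhadh ranked 4 in knockouts and 8 in controls. Scp2 ranked 7 in knockouts and 3 in controls, and Eci3 ranked 21 in knockouts and 9 in controls, although the Scp2 level itself overlapped between genotypes. These ranks compare levels per length and were not tested.

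Spread between mice differed widely among the genes. The coefficient of variation of Agps was 2.22% in knockouts and 7.44% in controls, that of Abcd3 3.58% in knockouts and 7.13% in controls, and that of Far2 107% in knockouts and 21.1% in controls.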
